A study of Mus musculus with 12 samples.

Results

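The Cyp3a cytochrome P450 genes were followed in mouse liver, by taking every row of the deposited gene table whose symbol was *Cyp3a11*, *Cyp3a13*, *Cyp3a16*, *Cyp3a25*, *Cyp3a41a*, *Cyp3a41b*, *Cyp3a44* or *Cyp3a59*. All 8 symbols were found among the 24532 genes of the table. A ninth gene of the cluster, *Cyp3a57*, also has a row, and it had no read in any of the 12 livers. RNA-seq was done on livers of male C57BL/6 mice in 4 groups of 3, each genotype, WT or *Ahr* HKO, being fed either an isocaloric control liquid diet or the Lieber-DeCarli diet with 5% ethanol by volume (36% of its calories). The mice were 10 to 12 weeks old when the 5 weeks of feeding began. All of them carried floxed *Ahr* alleles (*Ahr* fl/fl), and the *Ahr* HKO mice also carried Cre under the albumin promoter, which removes exon 2 of *Ahr* in hepatocytes and not in the other cells of the liver. WT were littermates without Cre.

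CYP3A enzymes sit in the endoplasmic reticulum, take electrons from the P450 reductase Por, and hydroxylate steroids, bile acids and a large share of drugs. In mouse liver *Cyp3a11* is the main inducible member, and its transcription is driven by the nuclear receptors PXR (*Nr1i2*) and CAR (*Nr1i3*). *Cyp3a13* is expressed in many tissues, among them the intestine. *Cyp3a41a*, *Cyp3a41b* and *Cyp3a44* are known as female-predominant genes of adult liver, and *Cyp3a16* as a gene of the fetal and newborn liver.

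Of the 8 members, 7 lie in a cluster of 770.0 kb on chr5:145345149-146114978 of GRCm38, in which *Cyp3a57* is the outermost gene on the lower side and *Cyp3a59* on the upper side. *Cyp3a13* lies alone at chr5:137892933-137925610, 7.42 Mb away. The annotated transcripts of all 8 have 13 exons and encode 503 or 504 amino acids. Coding sequences of *Cyp3a11* and *Cyp3a44* are 94.9% identical, those of *Cyp3a25* and *Cyp3a59* 97.5%, and those of *Cyp3a41a* and *Cyp3a41b* 99.9%, whereas *Cyp3a11* has 77.1% identity with *Cyp3a13* and 76.4% with *Cyp3a25*. This matters for reading the counts, because a read of 100 bases can match more than 1 member. Of all 100-base windows of the *Cyp3a44* transcript, 0.268% also occur without a mismatch in that of *Cyp3a11*, 2.52% in that of *Cyp3a41a* and 2.79% in any other member. For *Cyp3a59* and *Cyp3a25* the share of the *Cyp3a59* transcript is 5.61%, and for *Cyp3a41a* and *Cyp3a41b* it is 88.4% of the *Cyp3a41a* transcript. How shared reads were assigned is not given in the sources used here, so single values within these pairs are uncertain. The longest identical coding stretches of *Cyp3a11* with *Cyp3a44* and of *Cyp3a25* with *Cyp3a59*, the pairs set side by side in the results, are shown here, since a read within them matches both genes and can be placed only by its mate, the libraries having been read from both ends. They were taken from the GENCODE transcripts of GRCm38, and positions count from the start codon.
Cyp3a11 and Cyp3a44, coding bases 512 to 615 of each: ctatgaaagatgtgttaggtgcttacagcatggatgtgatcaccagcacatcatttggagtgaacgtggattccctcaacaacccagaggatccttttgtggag
Cyp3a25 and Cyp3a59, coding bases 350 to 511 of each: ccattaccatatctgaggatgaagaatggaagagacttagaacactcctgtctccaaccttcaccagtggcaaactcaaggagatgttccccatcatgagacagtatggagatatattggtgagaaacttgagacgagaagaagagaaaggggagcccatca

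The upstream sequences of the 4 members that rose on ethanol in *Ahr* HKO livers, of which *Cyp3a59* also passed in WT, are shown because 3 short motifs were searched in them. RefSeq promoters of GRCm38.p6 were matched for all 8 members, and the 250 bases before the matched start were searched on both strands. The windows of *Cyp3a16*, *Cyp3a25*, *Cyp3a41b*, *Cyp3a44*, *Cyp3a57* and *Cyp3a59* reach in part into the annotated spans of their genes. For *Cyp3a13*, which is on the minus strand, the window (chr5:137921620-137921869) lies wholly inside the span of the gene given above. The bases before the outer end of *Cyp3a13*, at 137925610, were not searched, so its results hold for the inner window only. The hexamer AGGTCA, which nuclear receptors such as PXR and CAR bind as part of paired elements, occurs once for *Cyp3a11* (162 bases before the start) and once for *Cyp3a44* (150 bases before it). It occurs at 2 places, facing each other, for *Cyp3a25* (176 and 155 bases before the start) and for *Cyp3a59* (177 and 156 bases before it). It was not in the windows of *Cyp3a13*, *Cyp3a16*, *Cyp3a41a* and *Cyp3a41b*, and 13.8% of 27025 promoters held it. The window of *Cyp3a57*, the gene without a read in any liver, also held it at 2 places, 174 and 153 bases before the start. GCGTG, the core of the element that AhR binds, was in none of the 8 windows, against 28.2% of all promoters. TTCNNNGAA, the STAT5 element, was in none of them either, against 7.18%. None of the 3 motifs overlaps another in these windows, and a match or its absence says nothing here about binding. Printed are 200 bases, from 250 to 51 before the start, 5′ to 3′ on the strand of the gene, with AGGTCA and its reverse complement in capitals.
Cyp3a11 promoter, chr5:145879905-145880104, strand -: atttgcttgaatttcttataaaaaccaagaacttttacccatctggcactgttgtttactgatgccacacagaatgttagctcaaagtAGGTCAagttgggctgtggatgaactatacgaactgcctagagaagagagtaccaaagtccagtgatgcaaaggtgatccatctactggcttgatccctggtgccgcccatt
Cyp3a44 promoter, chr5:145805925-145806124, strand -: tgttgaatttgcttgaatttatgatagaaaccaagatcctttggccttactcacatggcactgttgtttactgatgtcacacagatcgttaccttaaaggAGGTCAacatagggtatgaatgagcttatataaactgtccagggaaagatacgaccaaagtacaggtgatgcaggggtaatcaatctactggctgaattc
Cyp3a25 promoter, chr5:146009669-146009868, strand -: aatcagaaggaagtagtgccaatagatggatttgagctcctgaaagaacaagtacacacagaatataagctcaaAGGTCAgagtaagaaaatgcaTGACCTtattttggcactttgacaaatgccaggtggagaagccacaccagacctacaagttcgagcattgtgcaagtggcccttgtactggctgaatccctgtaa
Cyp3a59 promoter, chr5:146079008-146079207, strand +: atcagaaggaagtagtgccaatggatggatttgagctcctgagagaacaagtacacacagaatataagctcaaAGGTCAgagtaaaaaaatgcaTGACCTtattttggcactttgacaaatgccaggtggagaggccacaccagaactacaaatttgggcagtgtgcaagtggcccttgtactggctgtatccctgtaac
Over the 250 bases, the promoters of *Cyp3a25* and *Cyp3a59* were 95.6% identical and those of *Cyp3a11* and *Cyp3a44* 80.9%. The promoter of *Cyp3a44* was closer to that of *Cyp3a16*, at 95.9%, which lacks the hexamer.

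Each liver had 46306518 to 74336255 reads on genes, so that 3 reads, the smallest number taken as detectable, correspond to 0.0426 to 0.0672 CPM, the count scaled to the library size. Such limits cover counting error only. *Ahr*, the deleted gene, went against the labels at the gene level, with 41.4 to 65.6 CPM in the livers labelled *Ahr* HKO and 16.6 to 20.03 CPM in WT on the control diet. Counts per gene do not separate the deleted exon, so this value does not check the deletion. *Cyp1a2*, a known AhR target, was lower in the livers labelled *Ahr* HKO on both diets (log2 fold change (FC) of -1.67, adjusted *P* = 0.0197 in edgeR on the control diet, and -0.73, adjusted *P* = 0.0433 on ethanol). *Cyp1a1*, another AhR target, was higher in these livers on the control diet (log2 FC of 1.5, adjusted *P* = 0.0453 in edgeR) and overlapped between genotypes on ethanol (-0.04, adjusted *P* = 0.957). These known targets thus differed in opposite directions on the control diet. The 6 hepatocyte markers summed to 68820 to 109400 CPM per liver. The 5 markers of intestinal epithelium summed to 27.9 to 100.9 CPM per liver, with 2 or 3 of them at 0 in each group (*Sis* and *Lct* in all 4). WT control liver 1 stood apart from the other 2 of its group in *Cyp3a11*, *Cyp3a25* and *Cyp3a44*, and values without it are given beside the WT diet effects that it moves.

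*Cyp3a11*, *Cyp3a25* and *Cyp3a13* ranked in this order in 12 of 12 livers in FPKM, reads scaled to gene length and library size, the scale on which genes can be compared because it accounts for their length. The level of *Cyp3a11* was 752, 295 and 311 FPKM in the 3 WT control livers and 982, 1146 and 787 FPKM in the 3 WT ethanol livers. In the livers labelled *Ahr* HKO it was 279, 425 and 526 FPKM on the control diet and 1207, 1375 and 1363 FPKM on ethanol. *Cyp3a25* followed with group means between 100.1 and 260.2 FPKM and *Cyp3a13* with group means between 39.7 and 68.5 FPKM, and their ranges did not overlap with each other or with those of *Cyp3a11* in any of the 4 groups. *Cyp3a59* and *Cyp3a44* came next and did not keep an order, since *Cyp3a59* was the higher in 6 of 12 livers. The WT ethanol livers were the group in which *Cyp3a59* stood clearly above *Cyp3a44*, with 34.7, 32.2 and 17.3 FPKM against 11.2, 15.3 and 9.11 FPKM.

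The remaining members were close to the limit of detection. *Cyp3a16* had 27, 0 and 0 reads in WT control livers, 0, 45 and 2 in WT ethanol livers, 0, 0 and 30 in the livers labelled *Ahr* HKO on the control diet and 63, 4 and 56 in those on ethanol. *Cyp3a41a* was read in 3 livers, with 15 reads in WT ethanol liver 2, 3 reads in *Ahr* HKO control liver 3 and 15 reads in *Ahr* HKO ethanol liver 3. *Cyp3a41b* had no read in any liver. With 88.4% of windows shared between the *Cyp3a41* copies, these low values cannot be split between the copies. Whether reads that match both copies were counted at all is not given, so the level of the pair is uncertain too. The filter on low counts kept 14038 genes, among them 6 of the 8 members, all but *Cyp3a41a* and *Cyp3a41b*. The 3 known female-predominant genes of the family thus differed in the reads assigned to them in these male livers. *Cyp3a44* was read at 8.55 to 31.3 CPM in 10 livers, and the *Cyp3a41* copies were at 0.336 CPM or less in all 12.

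**Figure D1:**
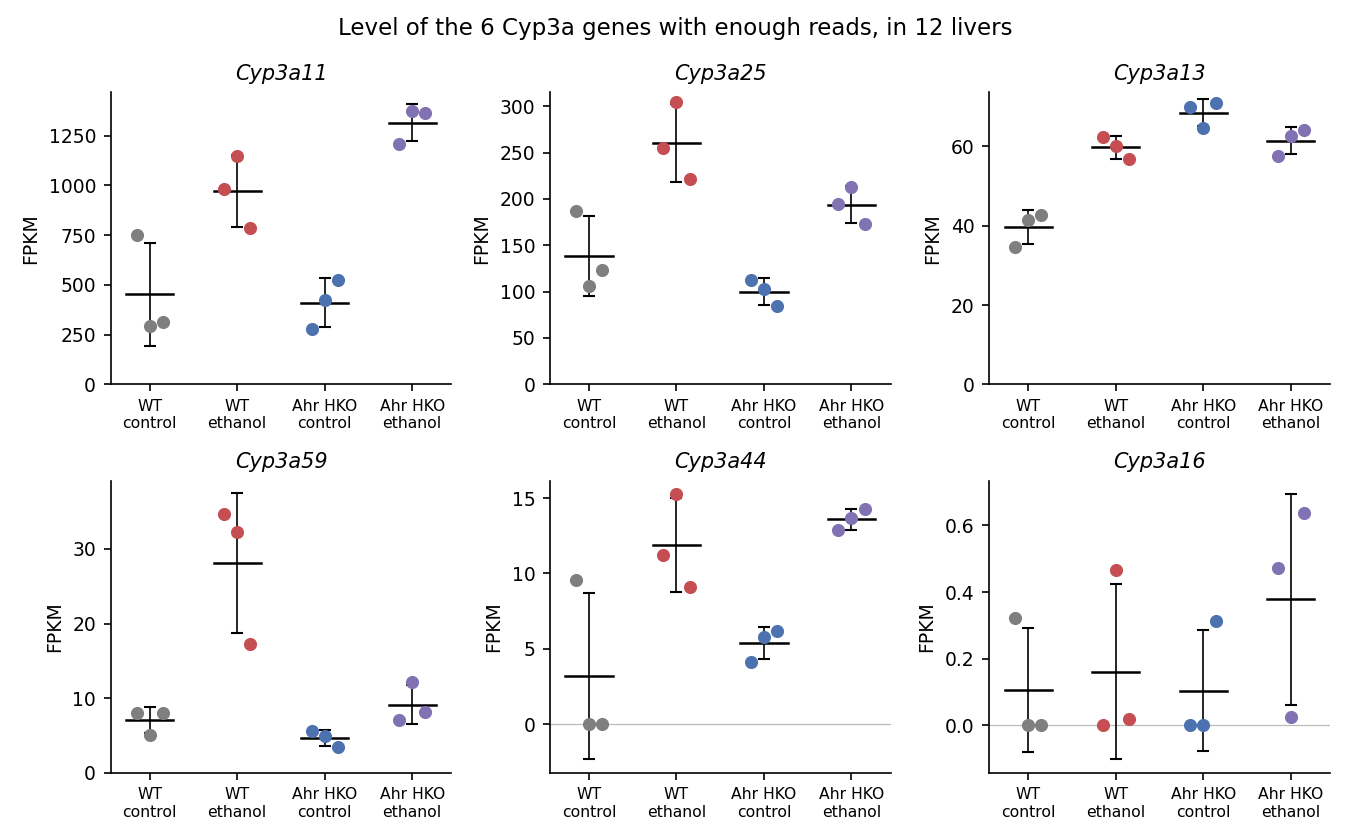
Level in FPKM (vertical axes, a separate scale for each gene) of the 6 members that passed the filter, in each of 3 livers of the 4 groups; points are livers, the wide bar is the mean and the thin bars are the SD. Mean levels of *Cyp3a11* and *Cyp3a25* were above control on ethanol in both genotypes and passed the test in *Ahr* HKO, *Cyp3a59* was highest in WT ethanol livers, *Cyp3a13* was lowest in WT control livers, and WT control liver 1 lies apart for *Cyp3a11* and *Cyp3a44*.

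Summed over the 8 members, the family reached 992, 447 and 485 FPKM in WT control livers and 1346, 1559 and 1092 FPKM in WT ethanol livers. The sum was 471, 603 and 691 FPKM in the livers labelled *Ahr* HKO on the control diet and 1480, 1677 and 1623 FPKM in those on ethanol. Ethanol livers were thus above control livers in both genotypes without overlap, by 2.08-fold in WT (642 ± 304 to 1332 ± 234 FPKM, mean ± SD, n = 3) and by 2.71-fold in *Ahr* HKO (588 ± 110 to 1593 ± 102 FPKM). Without WT control liver 1 the log2 ratio in WT was 1.51 in place of 1.05, beside 1.44 in *Ahr* HKO. No test was made on the sum, since the members were chosen. *Cyp3a11* supplied 75.2% of the added FPKM in WT and 90.1% in *Ahr* HKO. Without *Cyp3a11* the ratios were 1.91 in WT and 1.56 in *Ahr* HKO. Between genotypes the sums in FPKM overlapped on both diets, with ratios of *Ahr* HKO over WT of 0.917 on the control diet and 1.196 on ethanol. The ratio on the control diet changed sides of 1 without WT control liver 1 (log2 ratio of 0.34 in place of -0.12). In CPM the sums on ethanol did not overlap, at 3353 to 3783 in *Ahr* HKO and 2167 to 2852 in WT, so the overlap there depends on the scale. The FPKM ratio on ethanol went the other way without *Cyp3a11*, to 0.773, since the mean levels of *Cyp3a25* and *Cyp3a59* were below those of WT. Its size depends on the scale too, as *Cyp3a25* averaged 194 against 260 FPKM in *Ahr* HKO and WT, and 424 against 490 CPM. The sum without *Cyp3a11* was not made in CPM. The share of *Cyp3a11* in the sum was 68.7% ± 6.29 in WT control, 72.9% ± 0.728 in WT ethanol, 68.6% ± 8.63 in *Ahr* HKO control and 82.5% ± 1.26 in *Ahr* HKO ethanol livers (SD, n = 3). In reads, the family held 0.0998 to 0.362% of all counts of a liver.

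**Figure D2:**
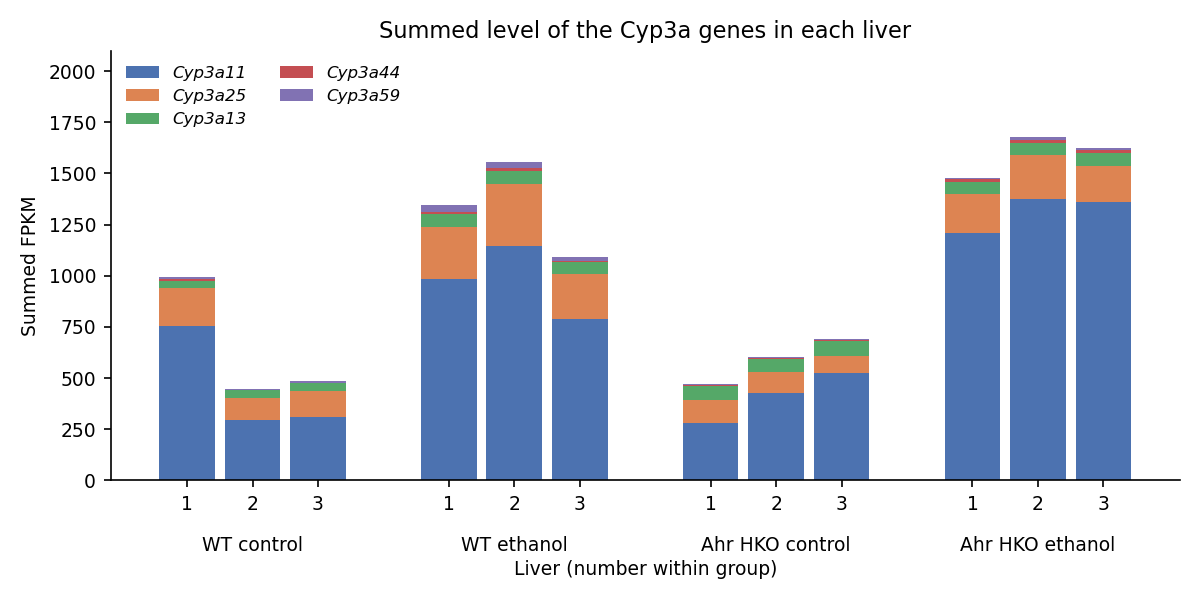
Summed FPKM (vertical axis, linear from 0) of the members in each of 12 livers, numbered within the 4 groups (horizontal axis); colors are genes, and *Cyp3a16* and *Cyp3a41a* are too low to be drawn. *Cyp3a11* makes up most of each bar, and the 6 ethanol bars (1092 to 1677 FPKM) stand above the 6 control bars (447 to 992 FPKM).

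The question of the diet comparison in WT was which genes of the liver change under ethanol when AhR is present. In WT livers 1 of 6 tested members was called, which required an FC above 1.5 together with adjusted *P* under 0.05, and it was higher on ethanol. Of all 14038 tested genes, 3.36% were called higher, 3.4% lower and 6.76% in either direction. This was *Cyp3a59*, with 16.8, 10.8 and 17.0 CPM in control and 69.6, 56.7 and 32.9 CPM in ethanol livers, a log2 FC of 1.85 (SE 0.299, edgeR, adjusted *P* = 0.0150). Its call was narrow, since with any 1 of the 3 control livers left out the adjusted *P* value was 0.0516 to 0.0549 while the log2 FC was 1.66 to 1.95. *Cyp3a25* was 388, 226 and 256 CPM in control and 512, 536 and 421 CPM in ethanol livers. These groups did not overlap, and the log2 FC of 0.76 (SE 0.219) missed the threshold (edgeR, adjusted *P* = 0.0741). *Cyp3a11* was 1619, 650.3 and 673 CPM in control and 2025, 2075 and 1536 CPM in ethanol livers. Control liver 1 lay above ethanol liver 3, so the groups overlapped, and the log2 FC of 0.94 (SE 0.369) did not pass (edgeR, adjusted *P* = 0.159). Without control liver 1 the *Cyp3a11* difference was 1.52 on the log2 scale (SE 0.185, edgeR, adjusted *P* = 0.0174) and that of *Cyp3a25* 1.04 (adjusted *P* = 0.0305).

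*Cyp3a44* had the least even values of the family in WT. Control liver 1 had 905 reads of it and control livers 2 and 3 had none, while the ethanol livers had 1171, 1660 and 1066 reads. The fitted log2 FC was 1.75 with an SE of 1.59 (edgeR, adjusted *P* = 0.530), and it rests on liver 1. Without this liver no control read is left and *Cyp3a44* was called higher on ethanol (edgeR, adjusted *P* = 0.00348). By counting error alone a count of 0 allows up to 3 reads, far fewer than in every ethanol liver. That limit does not cover how reads shared with other members were assigned, which was not tested. *Cyp3a13* moved little, from 108, 131 and 133 CPM to 185, 157 and 160 CPM, without overlap (log2 FC of 0.44, SE 0.116, edgeR, adjusted *P* = 0.0594). Altogether 3 of the 6 tested members (*Cyp3a13*, *Cyp3a25* and *Cyp3a59*) had ethanol livers wholly above control livers, where 16.5% of all tested genes did.

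In the livers labelled *Ahr* HKO, 4 of 6 tested members rose on ethanol, namely *Cyp3a11*, *Cyp3a25*, *Cyp3a44* and *Cyp3a59*. Of all tested genes, 10.3% were called higher in this comparison and 22% in either direction. *Cyp3a11* was 599, 862 and 1182 CPM on the control diet and 2700.1, 3049 and 3132 CPM on ethanol, a log2 FC of 1.75 (SE 0.258, edgeR, adjusted *P* = 0.00447). Each ethanol liver was far above each control liver. *Cyp3a25* went from 236, 204 and 184 CPM to 424, 460 and 388 CPM (log2 FC of 1.03, SE 0.136, edgeR, adjusted *P* = 0.00332). *Cyp3a44* went from 8.55, 11.2 and 13.2 CPM to 27.5, 29.0 and 31.3 CPM (log2 FC of 1.41, SE 0.168, edgeR, adjusted *P* = 0.00270). With all 12 livers in a single fit, which takes in the 2 WT control livers with no *Cyp3a44* reads, its adjusted *P* value was 0.400. *Cyp3a59* went from 11.7, 9.67 and 7.66 CPM to 15.5, 26.1 and 18.3 CPM (log2 FC of 1.05, SE 0.231, edgeR, adjusted *P* = 0.0150). All 4 genes had ethanol livers wholly above control livers, as had 24.5% of tested genes, against 25.2% wholly below.

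*Cyp3a13* was the exception among the well-read members, with 217, 189 and 229 CPM on the control diet and 185, 199.98 and 212 CPM on ethanol. These values overlapped (log2 FC of -0.09, SE 0.127, edgeR, adjusted *P* = 0.631). *Cyp3a16* had a fitted log2 FC of 1.90 (SE 1.54, edgeR, adjusted *P* = 0.381), with overlapping reads as given above. In the same comparison all 6 Kupffer cell markers and 3 of 6 sinusoidal endothelial markers were called lower on ethanol, as were 11.7% of all tested genes. The Kupffer cell markers summed to 292 to 734 CPM on the control diet and 190 to 231 CPM on ethanol. None of the defining markers of these 2 cell types was at 0. In bulk liver fewer cells of a type and less RNA per cell cannot be told apart, and the part of cell makeup in the Cyp3a values was not tested. The summed hepatocyte markers overlapped between these groups (68820 to 106800 CPM and 97080 to 106900 CPM).

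**Figure D3:**
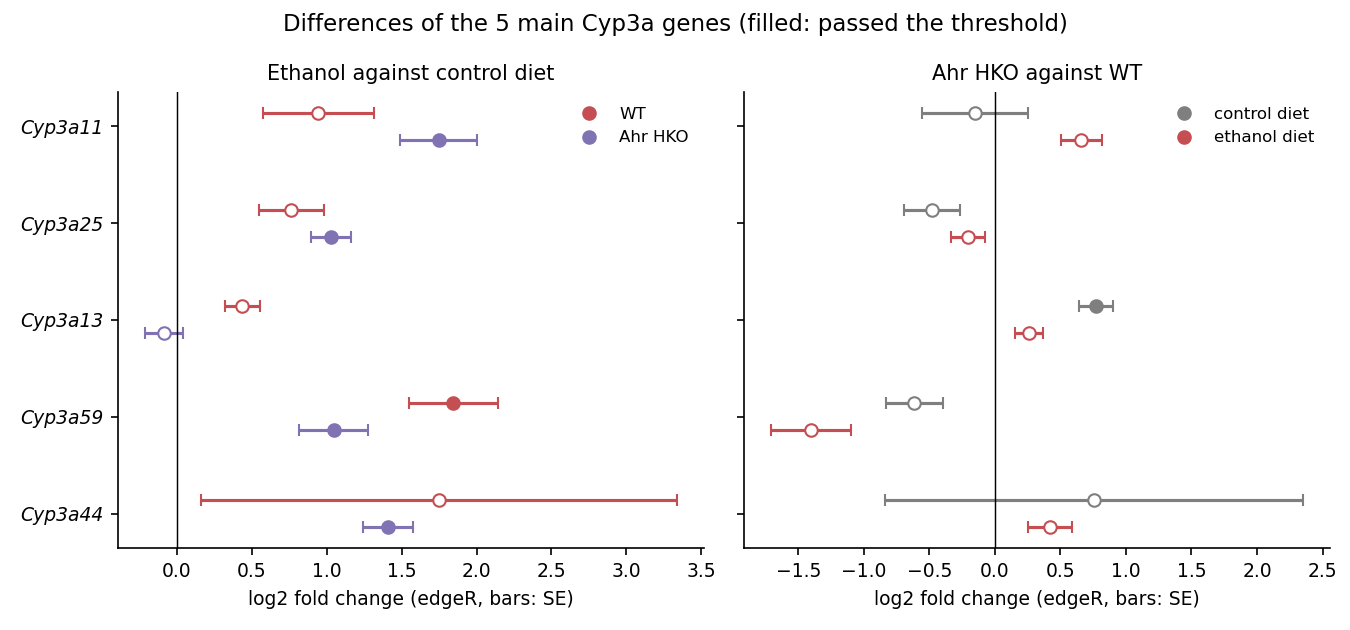
Log2 FC (horizontal axes, edgeR coefficients) of the 5 members with enough reads, for ethanol against control diet (left) and *Ahr* HKO against WT (right); bars are the SE, and filled symbols were called (FC above 1.5, adjusted *P* under 0.05). Filled are *Cyp3a59* in WT, 4 genes in *Ahr* HKO on the left, and *Cyp3a13* on the control diet on the right; the wide bars of *Cyp3a44* come from 2 WT control livers without reads.

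Genotypes were then compared on each diet, which asks what the loss of hepatocyte AhR changes. Both genotype comparisons use the same livers as the diet comparisons, so the 4 sets of values are not independent of each other. On the control diet 1 of 6 tested members differed, where 9.77% of all tested genes were called higher, 10.1% lower and 19.9% in either direction. *Cyp3a13* was higher in the livers labelled *Ahr* HKO, at 217, 189 and 229 CPM against 108, 131 and 133 CPM in WT (log2 FC of 0.77, SE 0.131, edgeR, adjusted *P* = 0.00584). It was the 1 member whose groups did not overlap, as did 23.3% of tested genes with *Ahr* HKO wholly higher and 24% with it wholly lower. *Cyp3a59* pointed down with 11.7, 9.67 and 7.66 CPM against 16.8, 10.8 and 17.0 CPM, and it did not pass (log2 FC of -0.62, SE 0.219, edgeR, adjusted *P* = 0.0713). *Cyp3a25* overlapped between genotypes (log2 FC of -0.48, SE 0.213, adjusted *P* = 0.133 in edgeR). *Cyp3a11* overlapped too (log2 FC of -0.15, SE 0.407, adjusted *P* = 0.811 in edgeR), and its direction depends on the livers, being 0.42 without WT control liver 1. *Cyp3a44* was read in 3 of 3 livers labelled *Ahr* HKO and 1 of 3 WT livers, and its fitted log2 FC of 0.76 had an SE of 1.59. Without WT control liver 1 it was called higher in *Ahr* HKO (edgeR, adjusted *P* = 0.00394), again against a group with no read.

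On ethanol no member passed in edgeR, with 4 of 6 at an unadjusted *P* value under 0.05 and 2 called by DESeq2. Of all tested genes 1.06% were called, 0.684% higher and 0.378% lower. *Cyp3a11* was higher in the livers labelled *Ahr* HKO, 2700.1, 3049 and 3132 CPM against 2025, 2075 and 1536 CPM, without overlap and short of the threshold (log2 FC of 0.66, SE 0.158, edgeR, adjusted *P* = 0.0925). *Cyp3a59* was at 15.5, 26.1 and 18.3 CPM in these livers and at 69.6, 56.7 and 32.9 CPM in WT, again without overlap (log2 FC of -1.40, SE 0.306, edgeR, adjusted *P* = 0.0787). DESeq2 called these 2 genes (adjusted *P* = 0.00217 and 0.000284). *Cyp3a44* (log2 FC of 0.42, SE 0.169) and *Cyp3a13* (log2 FC of 0.26, SE 0.108) also did not overlap, at adjusted *P* values of 0.215 and 0.232 in edgeR. Of all tested genes 13.6% lay wholly higher and 14.3% wholly lower. *Cyp3a25* overlapped (log2 FC of -0.21, SE 0.133). On ethanol the close relatives *Cyp3a25* and *Cyp3a59* thus had lower mean levels in *Ahr* HKO than in WT. *Cyp3a11* and *Cyp3a44* had higher ones, and none of these differences passed in edgeR.

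The interaction, which is the ethanol effect in *Ahr* HKO minus that in WT, was called for 1 of 6 members, where 22.3% of all tested genes were called at an adjusted *P* value under 0.05. This was *Cyp3a13* (log2 difference of -0.51, SE 0.169, edgeR, adjusted *P* = 0.0497), which lay at the threshold and did not pass with upper-quartile scaling (adjusted *P* = 0.0524). *Cyp3a11* had a log2 difference of 0.82 (SE 0.483, adjusted *P* = 0.245 in edgeR) and *Cyp3a59* one of -0.79 (SE 0.410, adjusted *P* = 0.189 in edgeR). *Cyp3a25* had 0.28 (SE 0.269), *Cyp3a44* -0.33 (SE 1.74) and *Cyp3a16* 1.505 (SE 2.66). The difference for *Cyp3a11* was 0.24 (SE 0.332, adjusted *P* = 0.654 in edgeR) without WT control liver 1. Without the same liver *Cyp3a44* was called lower for the interaction (edgeR, adjusted *P* = 0.000148), with no WT control read left to fit.

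The members that resemble each other in sequence were set side by side within the same livers. In FPKM, *Cyp3a44* was 0.993 to 1.49% of *Cyp3a11* in each of the 10 livers in which it was read, a range over which *Cyp3a11* itself went from 279 to 1375 FPKM. WT control livers 2 and 3, with 0 reads of *Cyp3a44*, had 295 and 311 FPKM of *Cyp3a11*, while *Ahr* HKO control liver 1, with a lower *Cyp3a11* level of 279 FPKM, had 523 reads of *Cyp3a44*. No count between 0 and 523 was seen for *Cyp3a44*. *Cyp3a59* did not follow *Cyp3a25* in a fixed share. It was 5.20% ± 1.19 of *Cyp3a25* in WT control, 4.61% ± 0.418 in *Ahr* HKO control and 4.69% ± 1.01 in *Ahr* HKO ethanol livers, and 10.7% ± 2.89 in WT ethanol livers (SD, n = 3). The 3 WT ethanol livers, at 7.82 to 13.6%, lay above the other 9. How reads common to the pairs moved these shares was not tested.

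**Figure D4:**
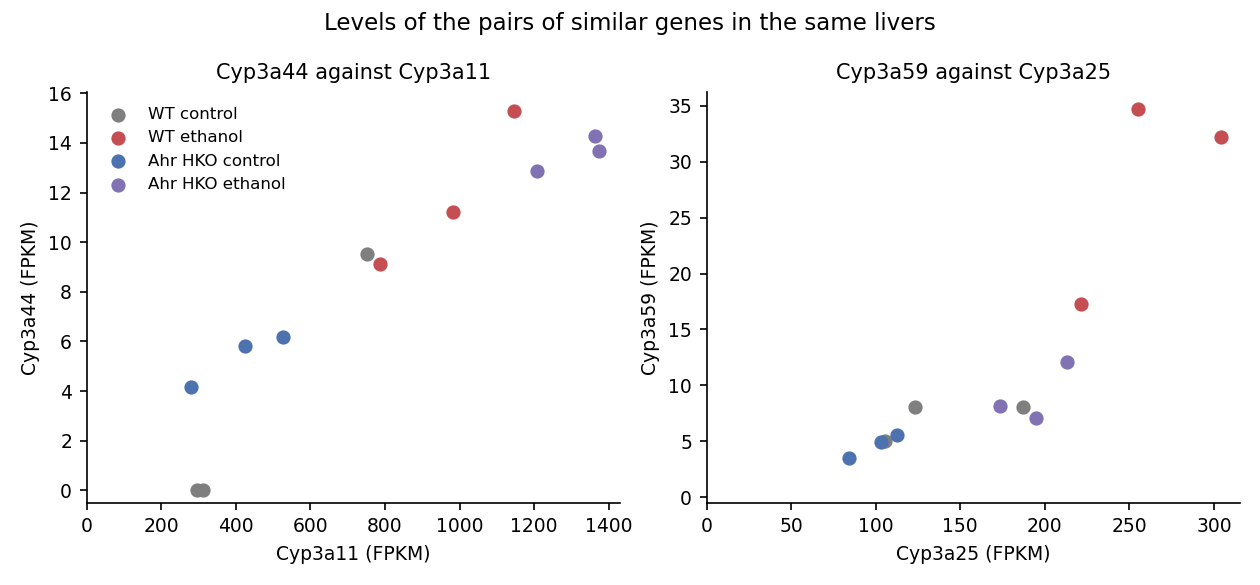
FPKM of *Cyp3a44* against *Cyp3a11* (left) and of *Cyp3a59* against *Cyp3a25* (right) in 12 livers, colored by group, on linear axes. On the left 10 livers lie near a line of about 1% and 2 WT control livers lie at 0; on the right the 3 WT ethanol livers lie above the other 9.

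The regulators, partners and companion genes of the family were counted in lists, of which *Vdr*, *A1bg*, *Sult2a1* and *Sult3a1* had too few reads to be tested. Of 20 tested Cyp3a regulators, 2 rose and none fell on ethanol in WT, where 3.36% of all tested genes were called higher and 3.4% lower, and the median log2 FC was 0.005 beside 0.03 for all genes. CAR (*Nr1i3*) rose from 93.6 ± 8.45 to 155 ± 5.27 CPM (log2 FC of 0.74, SE 0.0989, edgeR, adjusted *P* = 0.00803), and the coactivator *Ppargc1a* had a log2 FC of 0.60. PXR (*Nr1i2*) went from 66.8 ± 0.234 to 92.2 ± 2.85 CPM with an adjusted *P* value of 0.0147 in edgeR, and its log2 FC of 0.47 was below the FC threshold. In *Ahr* HKO 5 regulators rose and 2 fell, against 10.3% and 11.7% of all genes, with a median of 0.14 beside -0.02. The 3 with the largest increase in edgeR were the clock output factor *Dbp* (log2 FC of 2.31, adjusted *P* = 0.0380), *Ppargc1a* (1.51, adjusted *P* = 0.00182) and the corepressor *Nr0b2* (1.33, adjusted *P* = 0.0214). The *Dbp* values overlapped between the diets, at 23.7 ± 15.3 CPM on control and 118 ± 75.3 CPM on ethanol. *Nr1i3* rose here as well (log2 FC of 1.03, SE 0.204, edgeR, adjusted *P* = 0.0108), whereas *Nr1i2* had a log2 FC of 0.49 (adjusted *P* = 0.173). *Foxa3* and the bile acid receptor *Nr1h4* fell by 0.71 and by 0.61 on the log2 scale. On the control diet 3 regulators were higher and 3 lower in the livers labelled *Ahr* HKO than in WT, against 9.77% and 10.1% of all genes. The higher ones were *Hnf4a* (log2 FC of 0.97), *Foxa3* (0.79) and *Esr1* (0.75), and the lower ones *Dbp* (-2.08), *Nr1i3* (-0.63) and *Ppargc1a* (-0.61). On ethanol no regulator was called between genotypes in edgeR, with 8 of 20 at an unadjusted *P* value under 0.05.

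Of all genes 3.36% were called higher on ethanol in WT and 10.3% in *Ahr* HKO. Among 7 genes of P450 electron supply and heme metabolism, 2 rose on ethanol in each genotype and none fell. They were the heme oxygenase *Hmox1* (log2 FC of 1.67) and the P450-binding protein *Pgrmc1* (0.68) in WT, and *Pgrmc1* (0.72) and the cytochrome b5 gene *Cyb5b* (0.64) in *Ahr* HKO. *Por* was called in none of the comparisons, with log2 FC of 0.29 for ethanol in WT, -0.33 for ethanol in *Ahr* HKO, 0.73 between genotypes on the control diet and 0.12 on ethanol. The list median was 0.58 in WT and 0.39 in *Ahr* HKO for the diet.

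Of 16 other known PXR and CAR targets, 10 rose and none fell on ethanol in WT, with a median log2 FC of 1.57, and 10 rose and none fell in *Ahr* HKO, with a median of 1.05. The shares of all genes called higher were 3.36% and 10.3%. The 3 with the largest increase in WT were *Cyp2b10*, the standard CAR target (log2 FC of 11.11, from 0.0868 ± 0.150 to 183 ± 196 CPM), *Gsta1* (5.71) and *Gstm3* (4.60). In *Ahr* HKO they were *Cyp2b10* (5.66), *Gstm3* (3.30) and *Cyp2c55* (2.75). The log2 FC of *Cyp3a11* was below this median in WT (0.94) and above it in *Ahr* HKO (1.75), but in WT it was 1.52 without WT control liver 1, close to the median. The interaction was lower for 3 of the 16 (*Gsta1* -3.97, *Abcb1a* -1.68 and *Gstm3* -1.28) and higher for none, where 11.1% and 11.2% of all genes were called. Between genotypes *Papss2* was lower on the control diet (log2 FC of -0.91) and *Gstm3* on ethanol (-1.67) in the livers labelled *Ahr* HKO, and no target was higher in edgeR, with 3 and 1 higher at an unadjusted *P* value under 0.05.

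Since several Cyp3a genes are sex-biased, lists of other sex-biased liver genes were counted too. Of 9 tested female-biased genes, 6 rose and none fell on ethanol in WT, where 3.36% of all genes were called higher. The median log2 FC was 7.48 as fitted and 4.54 with the 5 genes at or under 3 reads in each control liver set at their lower bound. *Cyp2b9* and *Cyp2a4* had no read in WT control livers and reached 579 ± 220 and 345 ± 132 CPM on ethanol, at least 9638-fold and 5744-fold higher when 3 reads per library were taken as the floor. Over the same livers the female-predominant *Cyp3a41a* and *Cyp3a41b* stayed at 15 reads or fewer and *Cyp3a16* at 45 reads or fewer, while *Cyp3a44* had 905, 0 and 0 reads on the control diet and 1171, 1660 and 1066 on ethanol. Of 11 male-biased genes, 10 fell and none rose in WT (median log2 FC of -4.98), where 3.4% of all genes were called lower. In *Ahr* HKO 1 female-biased gene rose and none fell (*Cyp2b13*, log2 FC of 7.97), and 3 male-biased genes rose and 1 fell, with medians of 2.34 and 0.19, where 10.3% of all genes were called higher and 11.7% lower. Of 10 genes of the growth hormone axis, *Prlr* alone was called in WT (higher, log2 FC of 0.82), at the same 3.36% of all genes. In *Ahr* HKO, *Igfals* (1.48) and *Ghr* (0.61) rose and the STAT5 targets *Socs2* (-2.89) and *Cish* (-2.48) fell. Members of these lists were partly picked with the results of these livers known, so their directions are no independent evidence.

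**Figure D5:**
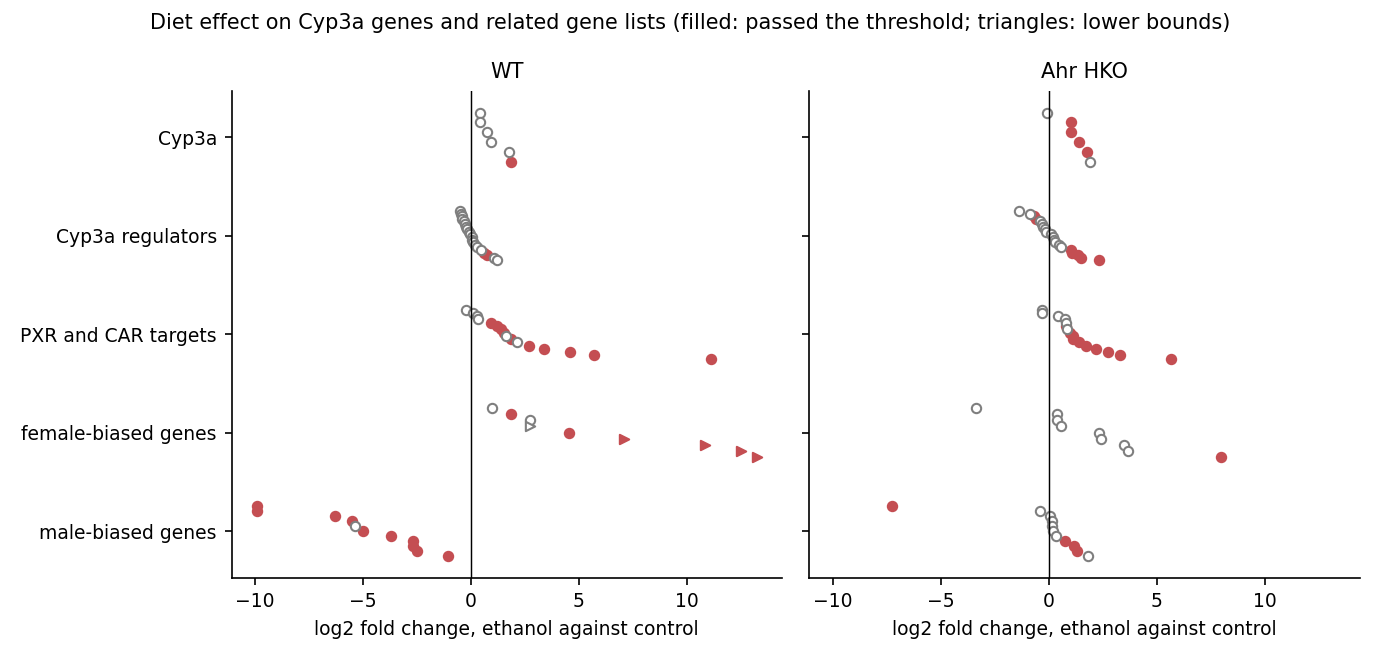
Log2 FC of ethanol against control diet (horizontal axes, same scale) for the 6 tested Cyp3a genes and 4 lists, in WT (left) and *Ahr* HKO (right); each symbol is a gene, filled where it passed the threshold, and triangles are lower bounds for genes with at most 3 reads in each control liver. PXR and CAR targets rose in both panels (10 of 16 in each), while female-biased and male-biased genes moved far apart in WT (6 of 9 higher and 10 of 11 lower).

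Zonation was described with 11 pericentral and 9 periportal hepatocyte genes, since CYP3A is stronger around the central vein. On ethanol 2 pericentral genes rose (*Rhbg*, log2 FC of 2.12, and *Cyp1a2*, 1.16) and 2 fell (*Cyp2e1*, -0.79, and *Rnf43*, -0.62) in WT. The shares over all genes in WT were 3.36% higher and 3.4% lower. In *Ahr* HKO 2 of 11 rose (*Cyp1a2*, 2.09, and *Rhbg*, 1.56) and none fell, beside 10.3% higher and 11.7% lower over all genes. Of the periportal genes 2 rose and 1 fell in WT (*Pck1*, 1.52, *Hsd17b13*, 1.00, and *Cdh1*, -1.15). In *Ahr* HKO 5 rose and none fell, led by *Ass1* (1.43), *Cyp2f2* (1.33) and *Pck1* (1.33). *Ass1* was read at a low level, with group means of 1.57 to 4.23 CPM, against 729 to 1096 CPM for *Arg1* of the same list. The median log2 FC was -0.01 and 0.22 for the pericentral list and 0.14 and 1.04 for the periportal list, in WT and in *Ahr* HKO.

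Outside the family, the tested genes whose log2 CPM ran most like each member over the 12 livers were named by Pearson's r, as a description of livers that share their groups. For *Cyp3a11* they were *Cyp2c55* (r = 0.931), *4931406C07Rik* (r = 0.926) and *Ass1* (r = 0.918). *Cyp2c55* is a P450 gene induced through PXR, and *Ass1* a urea cycle enzyme with group means of only 1.57 to 4.23 CPM. For *Cyp3a25* the most similar genes were *Entpd5* (r = 0.946), *Hrk* (r = 0.935) and *Samd8* (r = 0.933), and for *Cyp3a59* *Slc48a1* (r = 0.949), *Fibin* (r = 0.948) and *Tmem59* (r = 0.944). For *Cyp3a13* they were *Hnrnpc* (r = 0.958), *St3gal5* (r = 0.954) and *Psmd7* (r = 0.951), and for *Cyp3a44* *Frmd4b* (r = 0.916), *Ramp3* (r = 0.900) and *Arih1* (r = 0.899). The values for *Cyp3a44* take in WT control livers 2 and 3, with 0 reads of it, and how far these livers set its ranking was not tested. *Cyp3a16*, with few reads, was nearest to *Gfm1* (r = 0.914). No gene was among the top 3 of more than 1 member.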

How the data were processed

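Livers of 12 mice were used, grouped by the genotype, diet and replicate number of their labels, with no batch or date named. The authors deposited read counts per gene without normalization, FPKM values scaled by gene length and library size, and TPM values, a further scaling. Libraries were stranded, poly(A)-selected and sequenced from both ends, and the submitters' processing notes list FastQC 0.11.7, Trimmomatic 0.38, HISAT2 2.1.0, Bowtie2 2.3.4.1 and StringTie 1.3.4d with mm10. The counter's handling of reads that match several genes is not given in the sources used here. No pair of the 66 had identical counts. The livers were 3 per group, chosen at random by the study from larger groups.

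Counts were tested with edgeR 4.0.16 in R 4.3.3 by the quasi-likelihood method, after filterByExpr over the 4 groups (14038 of 24532 genes) and TMM scaling (factors 0.930 to 1.15). Pairwise fits used the 6 libraries concerned and the interaction all 12, and *P* values were adjusted by Benjamini-Hochberg over all tested genes. A gene was called at adjusted *P* under 0.05 with an FC of more than 1.5, and the interaction without the FC. CPM use TMM-scaled library sizes. The study itself tested log FPKM, which was tried with limma 3.58.1. The sum over the members used FPKM. Sequences were compared with Biopython 1.88, and figures were drawn with matplotlib 3.10.9.

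The alternatives were DESeq2 1.42.0, upper-quartile scaling, no count filter, at least 10 counts in every library, limma on log2 FPKM with pseudocounts of 1 (also after quantile normalization) and 0.1, the replicate number as a block, all 12 libraries in 1 fit, each library left out, and the sum in CPM, in TPM and without *Cyp3a11*. Adding near-identical genes before the test was tried as well, for *Cyp3a41a* with *Cyp3a41b* and, chosen after seeing the data, for *Cyp3a11* with *Cyp3a44* and *Cyp3a25* with *Cyp3a59*. The script was tested on simulated data.

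The members and lists were chosen with earlier results of these data known. Named were all members, *Nr1i2*, *Nr1i3*, *Por*, *Ahr* and *Cyp1a2*, at most the 3 highest and 3 lowest list genes per comparison with an adjusted *P* value under 0.05, and the 3 tested genes most correlated with each member. The markers *Sis* and *Lct*, *Cyp1a1* and the list genes with too few reads were named after their values were seen.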

Additional observations from a re-analysis of the deposited data

Results flagged for a closer look

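The ethanol effect on *Cyp3a13* differed between the genotypes by -0.51 on the log2 scale (SE 0.169, edgeR with all 12 livers, adjusted *P* = 0.0497), being 0.44 in WT and -0.09 in the livers labelled *Ahr* HKO, and was marked because the difference itself passed its test. In CPM, *Cyp3a13* was 124 ± 14.3 and 167 ± 15.7 in WT on the control diet and on ethanol, and 211 ± 20.8 and 199 ± 13.5 in *Ahr* HKO (SD, n = 3). Leaving out any liver except *Ahr* HKO control liver 2 moved the adjusted *P* value above 0.05, over a range of 0.0599 to 0.111, with log2 differences between -0.56 and -0.42. With 22.3% of all tested genes called for the same interaction, the call does not set *Cyp3a13* apart from other genes.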

How the results depend on the processing

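The count of called members in *Ahr* HKO on ethanol against control was 4, with 3 to 4 under the alternatives, while the other counts moved. For ethanol in WT the count of 1 became 3 in DESeq2, 2 in limma on log2(FPKM + 1) and on log2(FPKM + 0.1) and 2 with all 12 libraries in 1 fit, and ranged from 0 to 3 when a liver was left out (3 without WT control liver 1, 0 without WT control liver 2 or 3). For genotype on the control diet the count of 1 became 2 in DESeq2 and ranged from 1 to 2 when a liver was left out (2 without WT control liver 1 or 2). For genotype on ethanol the count of 0 became 2 in DESeq2 and 1 in the fit with all 12 libraries, and ranged from 0 to 1 (1 without WT ethanol liver 3). For the interaction the count of 1 became 0 with upper-quartile scaling, 0 without a count filter and 0 with the replicate block, and ranged from 0 to 1. It stayed at 1 without *Ahr* HKO control liver 2 and without WT control liver 1, where the called gene was *Cyp3a44* in place of *Cyp3a13*. The cause was not tested.

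Replicate numbers do not pair the livers: of 18 pairs of libraries with the same number, 2 had a correlation of deviations over 0.1 (range -0.0885 to 0.178, and -0.182 to 0.146 for different numbers), and 5 of 12 libraries correlated best with their own number. With the block the counts of called members were 1, 4, 1 and 0 for the 4 pairs of groups, as without it.

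Directions changed for *Cyp3a16*, a gene with at most 63 reads, and for differences near 0. For ethanol in WT, *Cyp3a16* ranged from -3.33 to 6.87 on the log2 scale when a liver was left out. For genotype on the control diet it was -0.0518 with upper-quartile scaling, -0.11 with the replicate block, -0.0033 in limma on log2(FPKM + 1) and -0.0104 on log2(FPKM + 0.1), and -6.39 to 6.44 with a liver left out. With a liver left out, *Cyp3a11* lay between -0.43 and 0.42 for genotype on the control diet. For the interaction *Cyp3a16* ranged from -4.97 to 8 and *Cyp3a44* from -11.88 to 0.26. Fitted values of *Cyp3a16* and *Cyp3a44* against groups without reads depend on the prior count and are no bounds. The log2 ratio of the family sum in FPKM without *Cyp3a11* was 0.64 for ethanol in *Ahr* HKO (1.44 with it) and -0.37 for genotype on ethanol (0.26 with it). Adding *Cyp3a44* to *Cyp3a11* and *Cyp3a59* to *Cyp3a25* before the test, chosen after seeing the data, changed no call of *Cyp3a11* or *Cyp3a25*. Each group has 3 livers. At this depth a member with 0 reads may have up to 3, and *Cyp3a16* was uneven within groups (63, 4 and 56 reads in *Ahr* HKO ethanol livers).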

Other observations

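For the interaction 10 of 11 male-biased genes were called higher and 2 of 9 female-biased genes lower, where 11.2% and 11.1% of all tested genes were called. On the control diet 5 male-biased genes were lower in the livers labelled *Ahr* HKO than in WT, where 10.1% of all tested genes were. They were led by *Hsd3b5* (log2 FC of -3.78) and *Elovl3* (-1.65). On ethanol 4 were higher, against 0.684% of all tested genes, led by *Hsd3b5* (7.94), *Cyp4a12b* (6.05) and *Cyp4a12a* (4.76). As stated above, these lists were partly picked with the results known, so the counts are no independent evidence.

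Of the electron supply and heme metabolism genes, *Hmox1* had an interaction of -2.03 (SE 0.344, edgeR, adjusted *P* = 0.00271). Its log2 FC on ethanol was 1.67 in WT and -0.37 in *Ahr* HKO. Among the regulators the interaction was called higher for *Dbp* (2.74), *Ppargc1a* (0.93) and *Hlf* (0.88).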
